A study of Cairina moschata with 9 samples.

Results

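The genes described here are 196 genes of duck abdominal fat whose transcript level stood higher at each successive age studied. They were taken from a table of 14814 genes, of which 10825 averaged at least 1 FPKM and were above 0 in every library. FPKM counts sequenced fragments scaled by the length of the gene model and by the fragments mapped in the library. Members were chosen by these same FPKM values: the mean at 35 weeks had to exceed that at 12 weeks by at least 25%, the mean at 66 weeks that at 35 weeks by at least 25% again, and the lowest 66-week library had to lie above the highest 12-week library. For that reason the differences between ages given below describe the choice and are not support for it.

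The libraries came from Muscovy ducks (Cairina moschata) aged 12, 35 and 66 weeks, with 3 birds of normal weight and 3 libraries at each age, and no treatment is named. The labels state neither sex nor diet nor laying state. The libraries of 12, 35 and 66 weeks carry lane codes 3, 4 and 5, and in every value below the age of a bird and its lane cannot be told apart. Whether birds of an age shared a pen or hatch is not given, so the birds of an age may not be independent. The spread between libraries may also be in part technical.

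Abdominal fat is the main internal fat depot of poultry and stores triglyceride in adipocytes, beside blood vessels, connective tissue and immune cells. In birds most fatty acid is made in the liver and reaches the depot in lipoproteins, and the depot enlarges as birds mature. In such bulk tissue, a larger number of cells of one type and more RNA per cell cannot be told apart. The table gives Ensembl-type identifiers and does not pair them with gene names, so no role is given to any member, the adipocyte markers could not be looked up, and no pathway list could be counted. Identifiers are printed for 2 members, and others are described by their rank and values.

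A level of 1 FPKM was reached by 10814 to 11291 genes per library. In 12-week replicate 3, log2(FPKM + 1) values correlated on average at 0.844 with its own age and at 0.886 with 35 weeks. These averages cover all genes averaging 1 FPKM or above, and those of other libraries are not set beside them. Without this replicate, 146 of the 196 members still met the rule and 226 genes met it in all. The sum of FPKM over genes that are not members averaged 1187820 ± 122389 in 12-week, 1414300 ± 91001 in 35-week and 1649930 ± 125474 in 66-week libraries (SD, n = 3 each). The libraries of the ages did not overlap, at an exact permutation p of 0.1 for each pair (two-sided, the smallest that 3 against 3 allows). FPKM of these libraries therefore does not add up to a common total, and its sum has the same order of ages as the members. Most of this lay in the most abundant genes. Without genes of 1000 FPKM or more the sums averaged 461057 ± 9401, 482321 ± 14969 and 516887 ± 15444 at 12, 35 and 66 weeks (SD, n = 3 each). The log2 ratio of the sums was then 0.16 at 66 against 12 weeks, beside 0.47 with them. At 35 against 12 weeks it was 0.07, beside 0.25, and the libraries of those ages overlapped (exact permutation p 0.2).

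Members were found at every level of expression, with a median of 37.3 FPKM, against 18.0 FPKM over all 10825 genes, and a range of 1.02 to 47890 FPKM. Their mean at 35 weeks was a median of 1.48 times that at 12 weeks, and their mean at 66 weeks a median of 1.51 times that at 35 weeks. From 12 to 66 weeks the median ratio was 2.27, with a lower quartile of 1.95 and an upper quartile of 2.78. The ratio was below 2 in 56 members, between 2 and 4 in 121 and at least 4 in 19. The second step was the larger one in 105 members and the first in 91. Of the 19 with a ratio of at least 4, 15 had a mean below 10 FPKM and 1 had a mean of 100 FPKM or more.

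ENSAPLG00000001216 had the clearest separation of the 3 ages among the members. Its 12-week birds had 107, 140 and 129 FPKM, its 35-week birds 181, 189 and 191 FPKM and its 66-week birds 274, 269 and 257 FPKM. All libraries of an age lay above all those of the age before, and the narrower of the 2 gaps between neighbouring ages was 0.37 on the log2 scale. The means were 125 ± 16.9, 187 ± 5.11 and 267 ± 8.56 FPKM (SD, n = 3 each), and the log2 fold change of 66 against 12 weeks was 1.09 ± 0.12 (SE; limma on log2(FPKM + 1), adjusted p 0.0368 over all genes tested). The call was lost in 10 of 17 alternatives, 8 of them without 1 library, and the adjusted p from limma ranged from 0.0267 to 0.108, with 0.0759 under quantile normalization. The gene entered by the rule and was then picked for its gaps between ages, from the same values that limma scores. Its adjusted p therefore describes the choice. With each library rescaled to a common sum, its log2 fold change was 0.51 (limma, adjusted p 0.0387). The same fold change was 1.06 with median-ratio scaling and 0.92 under quantile normalization.

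ENSAPLG00000009845 had the largest ratio of any member, 15.7 between its means at 66 and 12 weeks. Its 12-week birds had 0.252, 0.279 and 0.539 FPKM, its 35-week birds 2.36, 1.76 and 0.362 FPKM and its 66-week birds 4.61, 2.27 and 9.92 FPKM. Its 35-week birds spanned the range between the other ages: replicate 3 lay among the 12-week libraries and replicate 1 above the lowest 66-week library. Its log2 fold change of 66 against 12 weeks was 2.12 ± 0.49 (SE; limma, adjusted p 0.118), which did not pass, and passed in 1 of 17 alternatives (range 0.0308 to 0.274).

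The member with the highest level stood at 16239, 38173 and 32000 FPKM at 12 weeks, at 49004, 38629 and 29007 FPKM at 35 weeks and at 67715, 74301 and 85939 FPKM at 66 weeks. Its 12-week and 35-week libraries overlapped, and the 66-week libraries lay above both. Its log2 fold change of 66 against 12 weeks was 1.48 ± 0.41 (SE, limma adjusted p 0.151), which passed in 0 of 17 alternatives. Under quantile normalization that log2 fold change was 0.62. The next in level, picked after its values were seen, stood at 21364, 28874 and 27755 FPKM, then 46858, 52056 and 25730 FPKM, then 48216, 52287 and 72101 FPKM at the 3 ages, with overlap at both steps. These 2 genes made up between 32.5% and 48.9% of the summed FPKM of all members in a library, so the sum over the set depends strongly on them.

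At the other end, the member with the lowest mean had 0.570, 0.617 and 0.666 FPKM at 12 weeks, 0.770, 1.12 and 0.651 FPKM at 35 weeks and 2.56, 1.05 and 1.14 FPKM at 66 weeks. Its mean at 66 weeks rested largely on 1 bird. Its log2 fold change of 66 against 12 weeks was 0.63 ± 0.31 (SE, limma adjusted p 0.336), which passed in 0 of 15 alternatives. The member with the smallest ratio, 1.60 between 66 and 12 weeks, had 26.4, 27.3 and 26.7 FPKM, then 34.5, 32.4 and 34.2 FPKM, then 45.4, 39.8 and 43.4 FPKM. Small as its steps were, no libraries of neighbouring ages overlapped, and its log2 fold change of 66 against 12 weeks was 0.66 ± 0.09 (SE; limma, adjusted p 0.0474). That call was lost in 13 of 17 alternatives, among them every fit without 1 library, with an adjusted p from limma of 0.0353 to 0.625. With each library rescaled to a common sum, the log2 fold change of this member was only 0.08, and the p of 0.625 came from that fit. The same fold change was 0.62 with median-ratio scaling and 0.60 under quantile normalization.

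**Figure D1:**
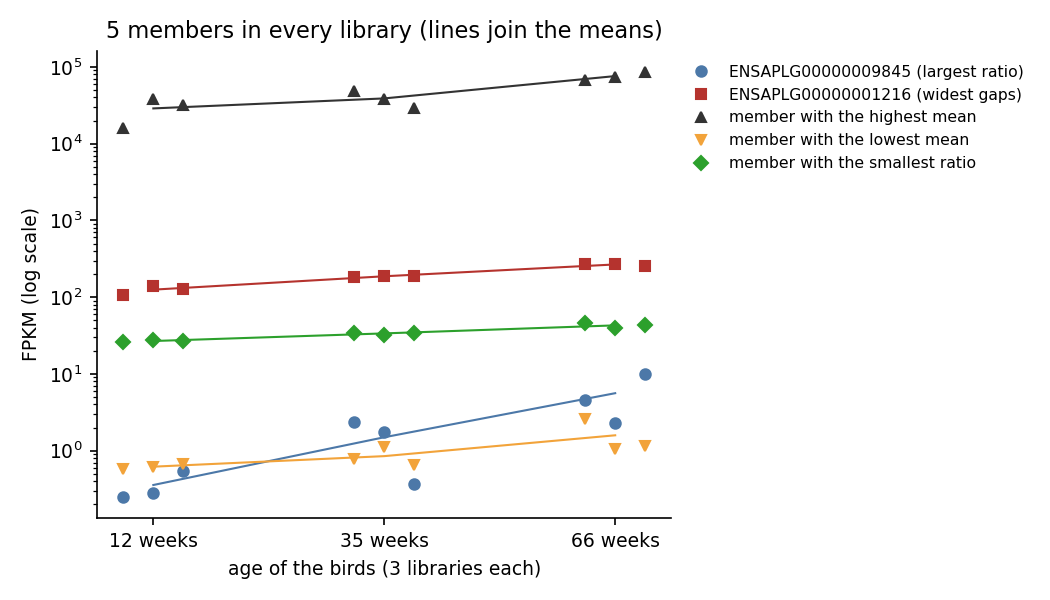
FPKM (log axis) of 5 members in each library, by age; points are libraries and lines join the means of the 3 ages. ENSAPLG00000001216 and the member with the smallest ratio show tight groups at each age, while ENSAPLG00000009845 spreads from 0.362 to 2.36 FPKM at 35 weeks.

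One member was singled out after its values were seen, as the only one with both a ratio of at least 4 and a mean of at least 100 FPKM. It stood at 650, 1346 and 348 FPKM at 12 weeks, at 1954, 1844 and 1362 FPKM at 35 weeks and at 3679, 3465 and 6206 FPKM at 66 weeks. Libraries of neighbouring ages did not overlap, although the highest 12-week and lowest 35-week library lay close together. Its log2 fold change of 66 against 12 weeks was 2.67 ± 0.47 (SE; limma, adjusted p 0.0711, range over alternatives 0.0214 to 0.182).

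Summed over the library, the set took a growing part of all FPKM. The members held 8.72%, 9.67% and 10.1% of the summed FPKM in the 12-week libraries, 11.8%, 12.7% and 11.2% in the 35-week libraries and 17.4%, 15.2% and 16.4% in the 66-week libraries. The 3 ages did not overlap. Relative to its own 12-week mean, the median member stood at a log2 ratio of 0.55 ± 0.16 in the 35-week libraries and of 1.15 ± 0.08 in the 66-week libraries (SD, n = 3 each). Over all 10825 genes the same medians were -0.003 ± 0.034 and -0.001 ± 0.029 (SD, n = 3 each). The rule asked every member for a rise at each step, so the members' share and medians describe the choice.

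Libraries of 1 age differed in how many members lay above the mean of that age. The rule used these same values, and a mean raised by 1 high library could bring a gene into the set. The counts therefore describe the choice and are not read as a trait of the birds. At 35 weeks, 131, 95 and 56 of the 196 members lay above their own 35-week mean in replicates 1, 2 and 3. Replicate 3 thus had 28.6% of the members above the mean of its age, against 54.0% of all 10825 genes in the same library. The members below 100 FPKM showed this most, with median log2 ratios over the 12-week mean of 0.72, 0.59 and 0.27 in the 3 libraries of 35 weeks, against 0.64, 0.58 and 0.52 for the members at 100 FPKM or more. At 12 weeks 97, 126 and 75 members lay above their age mean, and at 66 weeks 120, 95 and 77. The 12-week counts were 49.5%, 64.3% and 38.3% of the members, against 42.1%, 45.0% and 55.1% of all 10825 genes. The 66-week counts were 61.2%, 48.5% and 39.3% of the members, against 44.2%, 49.5% and 52.8% of all 10825 genes. The highest value of a member was in a 66-week library for 194 of the 196, most often replicate 1, with 89 members. The lowest was in a 12-week library for 180 and in a 35-week library for 16, of which 13 were in replicate 3.

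**Figure D2:**
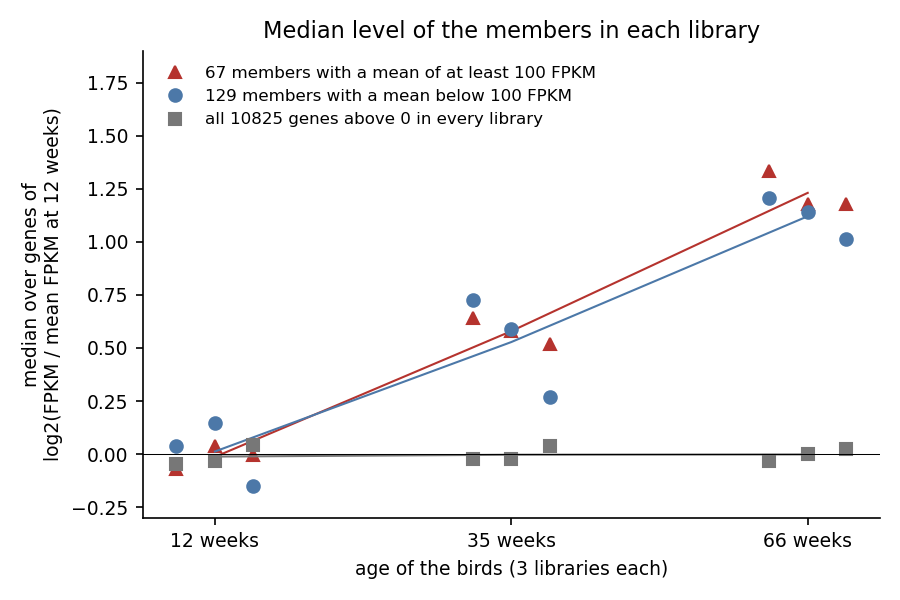
Median over genes of log2(FPKM / mean FPKM at 12 weeks) in each library, for 67 members at 100 FPKM or more, 129 members below 100 FPKM and all 10825 genes above 0 in every library; points are libraries and lines join the means of the 3 ages. Both groups of members step up at each age, 35-week replicate 3 is the lowest of its age, and the median of all genes stays near 0.

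At the thresholds, the choice was gradual. The member with the smallest first step had a ratio of 1.254 between 35 and 12 weeks, and the nearest gene outside had 1.248. For the second step these were 1.255 inside and 1.247 outside. A further 653 genes met every condition except the first step, 266 every condition except the second, and 69 every condition except the separation of the 66-week from the 12-week libraries. For that separation, the lowest 66-week value was 1.023 times the highest 12-week value in the nearest member and 0.999 times in the nearest gene outside. For the level, the nearest member averaged 1.02 FPKM and the nearest gene outside 0.971 FPKM, 1 of 16 left out by that condition alone.

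**Figure D3:**
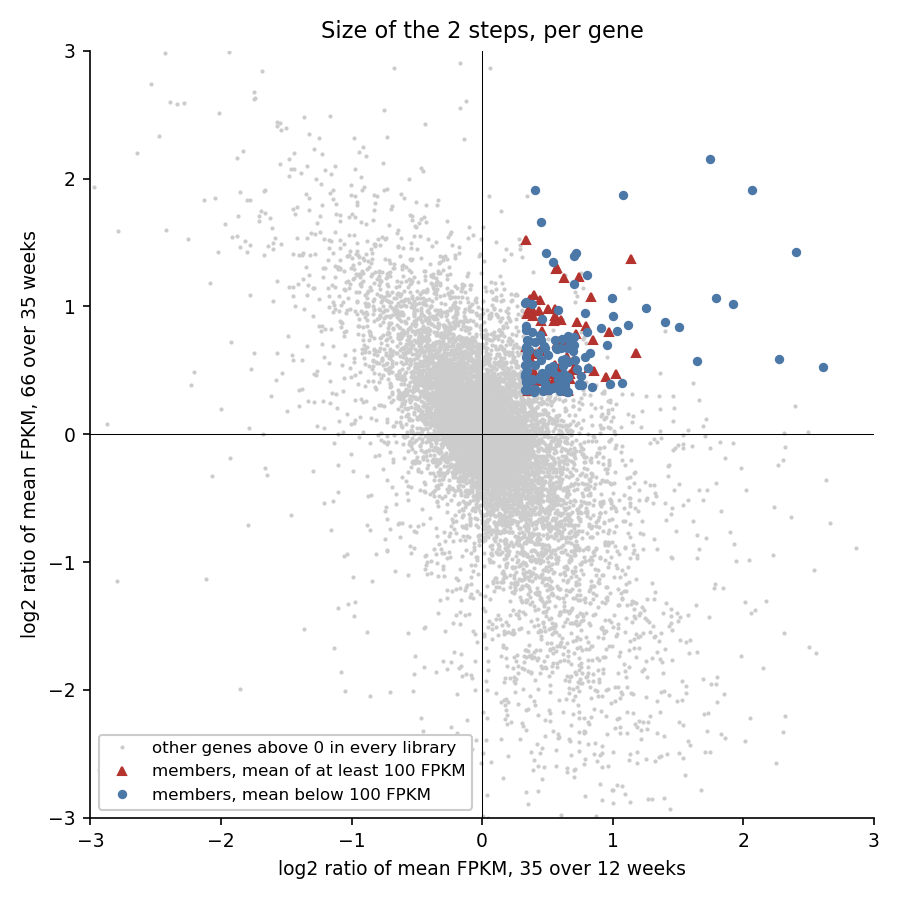
Log2 ratio of mean FPKM at 66 over 35 weeks (vertical) against 35 over 12 weeks (horizontal), 1 point per gene above 0 in every library. Members fill the upper right beyond the thresholds, those below 100 FPKM reach the longest steps, and genes beyond 3 log2 units on either axis are not drawn.

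In 73 members all 35-week libraries lay above all 12-week libraries, which held for 9.99% of all genes above 0 in every library. In 98 members all 66-week libraries lay above all 35-week libraries, against 18.8% of all such genes, and in 42 both were true, against 0.785%. The rule used these contrasts, so nothing is read from the excess. Of the 42, 26 had a mean of at least 100 FPKM, and 67 members overlapped at both steps. Single libraries mattered to membership: 53 of the 196 met the rule whichever 1 of the 9 libraries was left out, 29 of them at 100 FPKM or more. The count of members kept was lowest, at 125, without 35-week replicate 1.

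A fit of all 3 ages with limma, over the 11491 genes averaging 1 FPKM or above, called few members singly. All members passed that filter, since the rule asks for the same level. At 66 against 12 weeks 20 of the 196 were called higher (limma, adjusted p under 0.05), where 0.278% of all genes tested were called higher. Of the 20, 14 had a mean of at least 100 FPKM and 17 had no overlap at either step, and their ratios between 66 and 12 weeks ran from 1.60 to 7.76. At an unadjusted p under 0.05 there were 181 members, against 10.2% of all genes. At 66 against 35 weeks 5 members were called, against 1.13% of all genes, and 77 were higher at an unadjusted p under 0.05, against 12.5%. At 35 against 12 weeks 0 members were called, against 0.0174% of all genes, and 59 were higher at an unadjusted p under 0.05, against 8.09%. With limma's moderated F test across the ages, 14 members passed, against 0.94% of all genes. Since the rule used all of these contrasts, the counts describe the members and test nothing about them.

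The median log2 fold change of the members in that fit was 1.1 at 66 against 12 weeks, 0.56 at 66 against 35 weeks and 0.49 at 35 against 12 weeks, beside 0.03, 0.02 and 0.02 over all genes tested. The counts of calls changed when 1 library was left out. Each such fit has fewer residual degrees of freedom, also for a contrast that the library is not part of. The share of all genes called in these fits was not computed, so the changes are not read as particular to the members. The 20 members at 66 against 12 weeks became 0, 0 and 3 without 12-week replicates 1, 2 and 3. Leaving out a 35-week bird gave 0, 0 and 6, and leaving out a 66-week bird 0, 1 and 1. The 5 members at 66 against 35 weeks became 2, 4 and 19 without the 12-week replicates and 0 without any 1 of the other 6 libraries. The 14 of the F test became 3, 9 and 48 without the 12-week replicates, 0 without any 1 of the 35-week birds, and 0, 0 and 1 when a 66-week bird was left out. At 35 against 12 weeks 4 members were called without 12-week replicate 3.

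The 5 members called at 66 against 35 weeks are described after their values were seen. The lowest of them in level had 0.873, 2.1 and 0.923 FPKM at 12 weeks, 3.07, 2.56 and 2.60 FPKM at 35 weeks and 6.20, 9.96 and 14.0 FPKM at 66 weeks, with no overlap at either step. Its log2 fold change of 66 against 35 weeks was 1.5 ± 0.31 (SE; limma, adjusted p 0.0444). Another had 203, 148 and 181 FPKM, then 274, 275 and 251 FPKM, then 488, 406 and 437 FPKM, also with no overlap, and a log2 fold change of 66 against 35 weeks of 0.73 ± 0.15 (SE; limma, adjusted p 0.0439). The remaining 3 overlapped between 12 and 35 weeks and were set apart at 66 weeks only. One of these had 55.0, 52.6 and 51.3 FPKM, then 83.3, 63.2 and 54.0 FPKM, then 111, 122 and 128 FPKM at the 3 ages. For each of the 5, between 9 and 11 of 17 alternatives ended the call, 7 of them fits without 1 library.

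The share of genes in the set depended on level. In the class at 1000 FPKM and above, 26 of 151 genes, or 17.2%, were members. The share was 7.45% at 300 to 1000 FPKM and 3.06% at 100 to 300 FPKM. It was lowest at 10 to 30 FPKM, with 30 of 3664 genes or 0.819%, and was 2.51% at 1 to 3 FPKM. In all, 67 of the 1124 genes at 100 FPKM or more were members, against 129 of the 9701 below. With the rule turned round, so that each age had to stand lower than the one before, 54 genes met it, fewer than the members in every class. Of the members, 67 had a mean of at least 100 FPKM and 64 one below 10 FPKM. Of the 54 genes these were 2 and 37, with a median level of 5.28 FPKM.

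**Figure D4:**
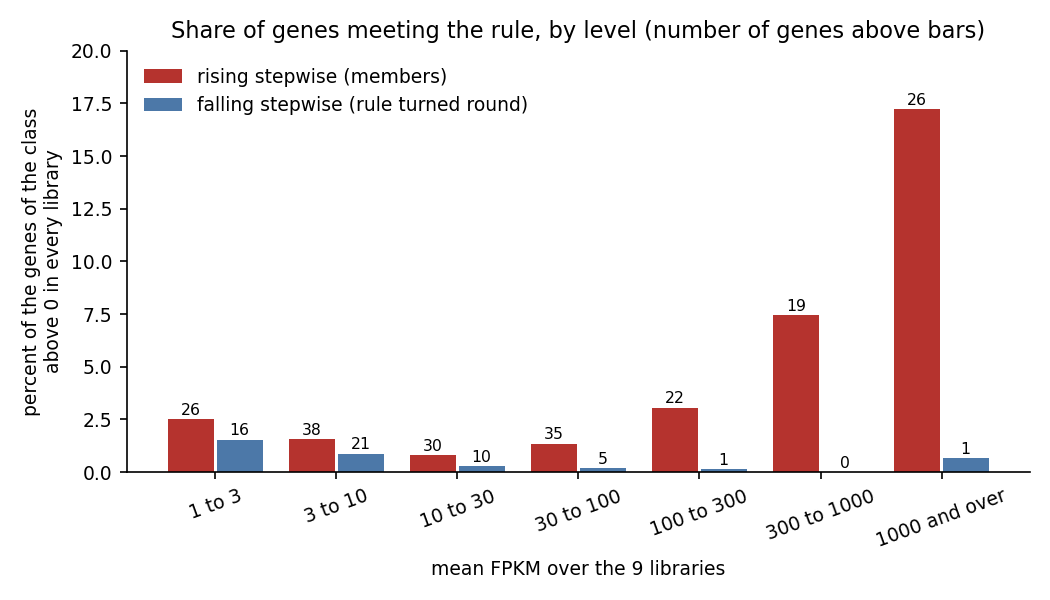
Percent of the genes of each level class that met the rule (left bars) and the rule turned round (right bars), with the number of genes above each bar; classes are by mean FPKM over the 9 libraries. The share of rising genes climbs to 17.2% in the highest class, where 1 gene met the rule turned round.

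The class of the highest level had medians above 0. Over all 151 genes at 1000 FPKM or more, members included, the median log2 ratio was 0.58 for 66 over 12 weeks, with 0.24 for 35 over 12 weeks and 0.31 for 66 over 35 weeks. The 26 members of that class had a median of 1.40 for 66 over 12 weeks. Between 10 and 100 FPKM, where most genes lie, all genes together had medians near 0, at 0.02 in both classes, and the members had 1.11 and 1.07. Without the members, the medians for 66 over 12 weeks were 0.37 in the 125 other genes of the highest class and 0.02 in both middle classes. Leaving out genes chosen for being higher lowers such a median by itself.

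The FPKM value of a single fragment was read from low values of genes outside the set, since fragments come in whole numbers. In short gene models, taken relative to long ones, it had the same order of ages. Relative to genes in which 1 fragment is worth 0.06 to 0.12 FPKM, the log2 shift of its value in 49 genes worth 3 to 10 FPKM per fragment averaged -0.21 ± 0.05 in 12-week, -0.06 ± 0.05 in 35-week and 0.27 ± 0.05 in 66-week libraries (SD, n = 3 each). Between no pair of ages did libraries overlap, at an exact permutation p of 0.1 for each pair (two-sided, the smallest possible). In 107 genes in which it is worth 0.5 to 1 FPKM, the log2 shift averaged -0.08 ± 0.02, -0.01 ± 0.03 and 0.09 ± 0.01 at the 3 ages (SD, n = 3 each). This is a shift of short against long gene models within a library. Without that reference the libraries overlapped: in the class of 3 to 10 FPKM the value itself, centred over the 9 libraries, was -0.14 (log2) in 66-week replicate 2 and -0.06 in 12-week replicate 2.

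**Figure D5:**
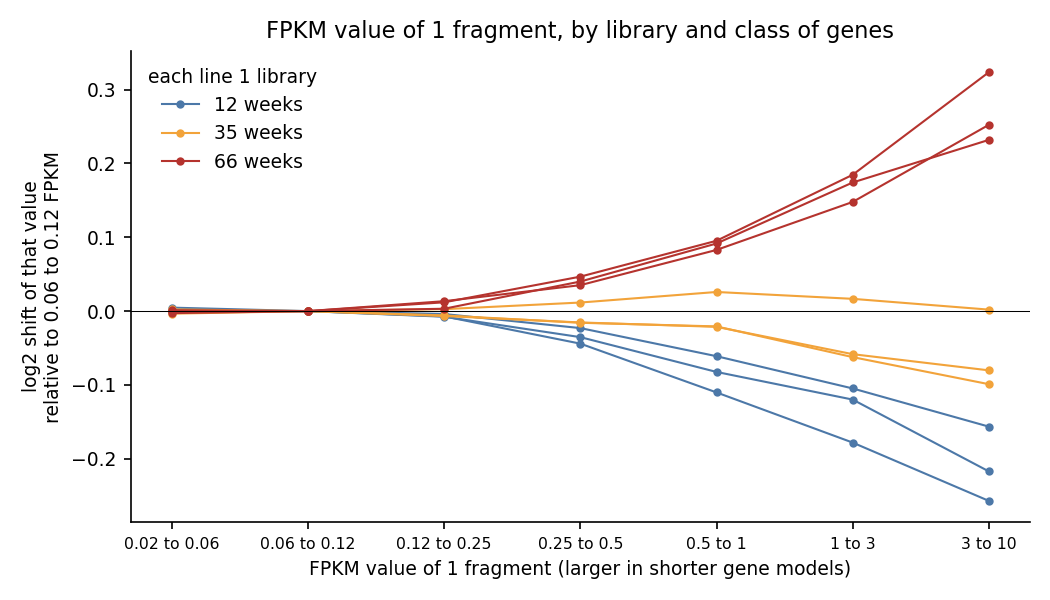
Log2 shift of the FPKM value of 1 fragment in each library (vertical), relative to genes in which it is worth 0.06 to 0.12 FPKM, against the class of genes by that value (horizontal); each line is 1 library, coloured by age. The lines fan out toward short gene models, with the 66-week libraries highest and the 12-week libraries lowest.

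If fragments were counted whole, a gene's lowest value above 0 cannot be less than 1 fragment, which limits the class of a member with low values. The shift of a class is a median over its genes, so a member near the upper edge of its class may have a larger one. A member whose lowest value holds several fragments belongs to a lower class, where the shift is smaller. The division below then takes out too much, and how many members this concerns is not known. The lowest value was below 10 FPKM in 85 members and below 1 FPKM in 30. With each library divided by the shift of the class that holds the member's lowest value, 35 of the 85 still met the rule, and 23 of the 30. The median log2 ratio of the 85 at 66 over 12 weeks was 0.86 after this division and 1.19 as deposited. For the other 111 members, whose lowest value was 10 FPKM or more, no such shift was taken out. The part of the fragment value in their steps was not tested.

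Every member had a higher mean at 66 than at 12 weeks under each scaling tried, but the step sizes were not kept. The direction was largely fixed by the rule and is no support, since the lowest deposited ratio of a member was 1.60 between these ages. With each library rescaled to a common sum of 1000000, the median log2 ratio of all 10825 genes at 66 over 12 weeks was -0.57, against 0.02 as deposited. This scaling moves all genes of a library by 1 factor, members included. Only 23 members then met the rule as worded and 959 genes met it turned round. Median-ratio scaling, which centres the middle of the table, kept 165 members, with 67 genes for the rule turned round. Quantile normalization, which gives every library the same distribution, kept 102 members. Of these, 16 were among the 67 at 100 FPKM or more and 86 among the 129 below. Under all 3 scalings 19 members met the rule, 5 of them at 100 FPKM or more. In the deposited FPKM, the median ratio of the 19 between 66 and 12 weeks was 4.17. Of the 19, 15 also met the rule in the deposited FPKM without any 1 library.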

How the data were processed

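The authors deposited 1 FPKM value per gene and library, per the file headers. TopHat2 2.0.9, Cufflinks 2.1.1 and Cuffdiff are named in the submitters' processing notes. What each tool did, the genome build, the annotation, the read depth and whether libraries were scaled to each other is not stated there or in the labels. The printed identifiers begin with ENSAPLG, and the gene models behind them are not stated to be those of Cairina moschata. Libraries were grouped by the age in their labels. No 2 libraries held identical values, and 0 columns belonged to no sample.

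The rule was applied to the deposited FPKM. The members and lists were chosen with earlier results of these data known. limma 3.58.1 in R 4.3.3 was fitted to log2(FPKM + 1) of all 9 libraries with an intensity trend, with 6 residual and 2.03 prior degrees of freedom, two-sided, with Benjamini-Hochberg adjustment over all 11491 genes. Fold changes on that scale understate those of low genes. Exact permutation tests compared sums and fragment values of 2 ages. The value of 1 fragment was estimated from genes above 0 in 2 to 7 libraries, using multiples up to 4. In the class of 3 to 10 FPKM, 84.0% of values lay within 0.1 of a whole multiple. The steps were tested on simulated data. Python 3.11.15, numpy 2.4.6, pandas 2.3.3, scipy 1.17.1 and matplotlib 3.10.9 were used. Named members were those with the largest ratio and with the widest gaps between ages. Those with the highest and lowest mean, the smallest ratio and the values nearest each threshold were described without identifier.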

Additional observations from a re-analysis of the deposited data

How the results depend on the processing

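Counts of members are limma calls at an adjusted p under 0.05, and what caused the changes was not tested. The share of all genes called was not computed under the alternatives. A change in the members thus cannot be told from a general change in calls. The alternatives with genes below 100 FPKM and with the fragment value divided out were chosen after seeing the data. The 20 members at 66 against 12 weeks became 12 with no filter, 0 with quantile normalization, 12 with median-ratio scaling, 38 with sums of 1000000 and 41 with library weights. The 5 at 66 against 35 weeks became 2 with no filter, 3 with quantile normalization, 0 with sums of 1000000 and 53 with weights. The weights ran from 0.28 for 12-week replicate 3 to 3.77 for 35-week replicate 2. The 14 of the F test became 28 with only genes above 0 in every library and 2 with quantile normalization. They became 9 with sums of 1000000 and 89 with weights, and the 0 at 35 against 12 weeks became 13 with weights. Without 1 library these counts ranged from 0 to 6, 0 to 19, 0 to 48 and 0 to 4. Deviations of same-numbered libraries correlated at -0.23 to 0.40 over 9 pairs, 2 above 0.1. No differently numbered pairs are set beside them, so these values cannot settle whether replicate numbers pair the birds. With the replicate number as a block, 0 members were called at 66 against 12 weeks, 1 at 66 against 35 weeks and 0 in the F test.

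The 196 genes of the rule and the 54 of the rule turned round became 23 and 959 with sums of 1000000, 493 and 187 with steps of 1.1, 48 and 21 with steps of 1.5, and 42 and 4 with no overlap at either step. Quantile normalization gave 122 for the rule. Genes below 100 FPKM alone gave 129, which are the members at that level, so this count was fixed in advance. Members kept were 23 with sums of 1000000 and 102 with quantile normalization. Steps of 1.5 kept 48 and no overlap kept 42, settings that can only narrow the rule. With the fragment value divided out, which may take out too much, 35 of the 85 low members were kept. With the median of each age in place of its mean, 170 genes met the rule, 131 of them members, and 49 met it turned round. Without 1 library the counts ranged from 159 to 285 for the rule, 45 to 130 turned round and 125 to 179 members kept. The members' median log2 ratio of 66 over 12 weeks, 1.18, became 0.59 with sums of 1000000 and 1.04 with quantile normalization, and ranged from 1.11 to 1.24 without 1 library. Sums outside the set and fragment values kept their order of ages in every alternative, with exact p of 0.1 or 0.2, which cannot pass.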
